A study of Mus musculus with 8 samples.

Results

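Chemokines and their receptors were examined as a gene family in epididymal white adipose tissue, a visceral fat depot attached to the epididymis. Members were all genes named Ccl, Cxcl, Ccr or Cxcr with a number, together with Cx3cl1, Cx3cr1, Xcl1, Xcr1 and Ackr1 to Ackr4. Of 62 such genes, 54 had a probe set of their own among 18820 genes on the arrays, 34 of them ligands and 20 receptors. No filter on dim genes was applied. A further 5 members, Ackr4, Ccl21a, Ccl21b, Ccl21c and Ccl27a, were reported only by probe sets shared with other genes, and the remaining members were not analysed here. Tissue came from 4 wild-type (WT) and 4 Sucnr1-/- male mice on a C57BL/6 background, 1 array per mouse. Both genotypes were littermate offspring of Sucnr1+/- parents and received a low-fat diet (LFD) over 16 weeks, from an age of 8 to 10 weeks until 24 to 26 weeks. In Sucnr1-/- mice an IRES/lacZ/neo cassette replaces much of the second exon of Sucnr1, the succinate receptor gene, in all tissues, so the model does not separate fat cells from immune cells. Sucnr1 lay between 8.68 and 9.78 in WT mice and between 5.41 and 7.11 in Sucnr1-/- mice on the log2 scale, without overlap, a difference of −3.05 (SE 0.36; limma, adjusted p = 0.321).

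Chemokines are small secreted proteins that guide the movement of leucocytes. They are named CC, CXC, XC or CX3C after the spacing of their conserved cysteines, and they act on receptors coupled to inhibitory G proteins, whereas the atypical receptors bind chemokines and remove them without that signal. In adipose tissue CCL2 and its receptor CCR2 are best known for the recruitment of monocytes that become macrophages. Other members place lymphocytes (CCL19, CCL21, CXCL13), neutrophils (CXCL1, CXCL2, CXCL5) or eosinophils (CCL11, CCL24).

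The authors deposited log2 values from robust multi-array average (RMA), and every level below is on that scale. A difference is the mean of Sucnr1-/- mice minus the mean of WT mice, with the standard error (SE) from limma, a linear model that shares information on spread between genes. The 9 measured adipocyte markers had a mean level of 12.42 to 12.72 in WT mice and of 12.63 to 12.71 in Sucnr1-/- mice. Epididymis markers had mean levels of 4.50 to 5.13 and 4.62 to 4.78. One array stood apart, for this family and beyond it. WT replicate 1 held the highest value of all 8 mice for 30 of the 54 members (55.6%), against 18.2% of all genes. It was the lowest of 8 for 24.2% of all genes and for 8 of the 9 adipocyte markers, had the lowest adipocyte marker mean and received the lowest array weight in limma (0.454, against 0.826 to 1.84). Sucnr1-/- replicate 4 held the lowest value for 20 members (37.0%), against 16.2% of all genes. Sucnr1-/- replicate 1 was the highest of 8 for 6 members (11.1%, against 7.65% of all genes). Immediate early genes, a small set that is switched on within minutes of stress or handling, followed the same mice on average. The mean level of these 12 genes was 9.22 in WT replicate 1 and 8.94 in Sucnr1-/- replicate 1, against 8.19 to 8.43 in the other WT mice and 7.94 to 8.17 in the other Sucnr1-/- mice. Single genes of the set departed from this. Jun was higher in Sucnr1-/- mice without overlap (10.31 to 10.46, against 9.93 to 10.23 in WT), and Nr4a1 was highest in WT replicate 3. Fos and Dusp1 were lower in Sucnr1-/- replicate 1 than in WT replicate 4. The part of immediate early genes in the results below was not tested. In whole tissue, fewer cells of a type and less RNA per cell cannot be told apart.

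**Figure D1:**
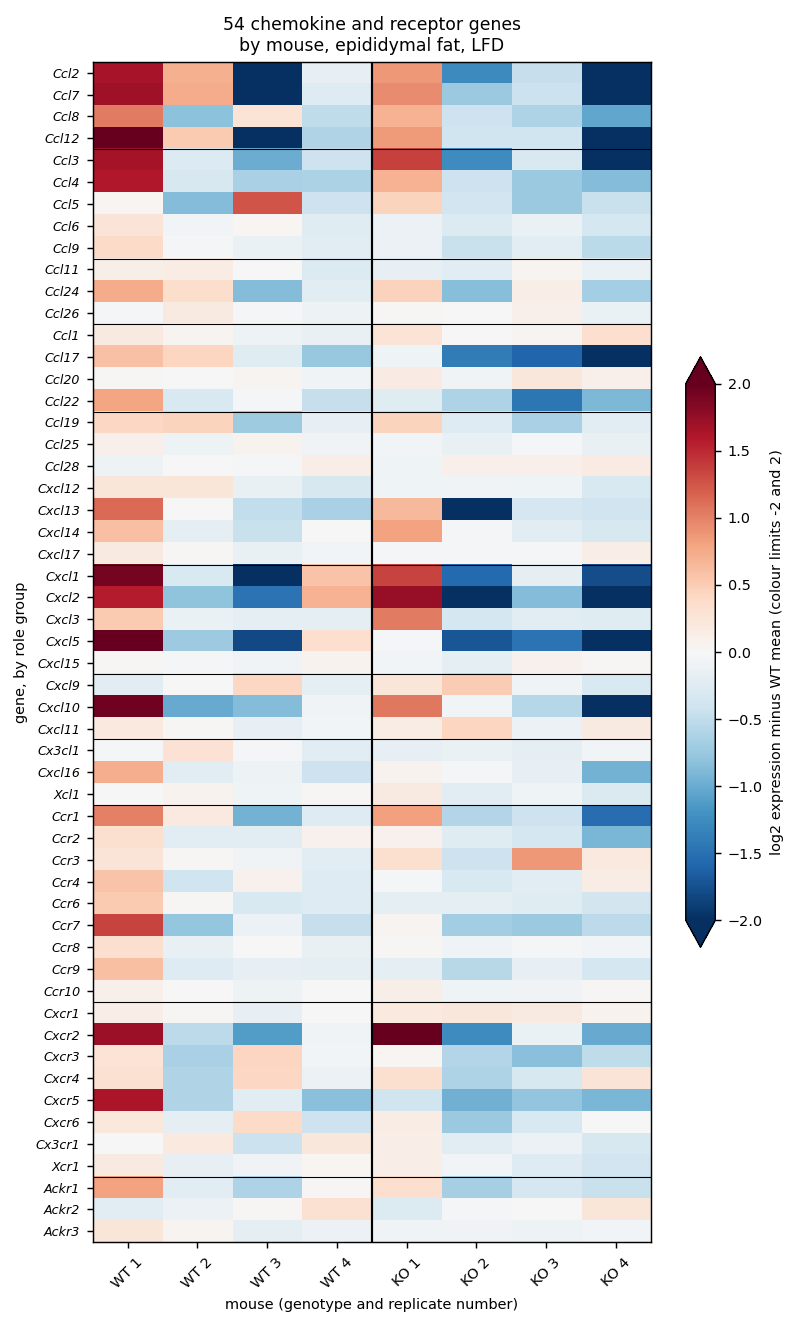
Log2 expression of 54 chemokine and chemokine receptor genes (rows, ordered by role group with lines between groups) in each of 4 WT and 4 Sucnr1-/- (KO) mice (columns), as the difference from the WT mean of the gene. Colours stop at −2 and 2. The WT 1 column is red in most rows, and KO 1 is red for many of the same ligands, whereas KO 4 is blue for most ligands.

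Most members had lower means in Sucnr1-/- mice, by a median of −0.20 on the log2 scale, but no single member was separated from the spread between mice. Of 54 members 43 had a lower mean (79.6%, against 46.8% of all genes), and the median difference of all genes was 0.01. Among ligands 26 of 34 were lower, and among receptors 17 of 20. By limma, 0 members had an adjusted p under 0.05, and so did 0.0% of all genes. At an unadjusted p under 0.05 there were 3 members with a lower mean, Ccl17, Ccl22 and Ccl9, which is 5.56% against 3.36% of all genes, and 0 with a higher mean, against 3.46% of all genes. The methods' t-test gave 0 members, unadjusted or adjusted, against 561 genes lower and 686 higher of 18820 at its unadjusted p under 0.05. In none of the 54 members did the 4 Sucnr1-/- mice lie entirely below or above the 4 WT mice. Such a separation was found for 1.87% of all genes in the lower direction and 2.37% in the higher. The smallest adjusted p of a member was 0.712. Without WT replicate 1 no member with a lower mean was under an unadjusted p of 0.05, against 518 of 18820 genes. The median difference of the members was then −0.03, with 32 of 54 lower. Without Sucnr1-/- replicate 1 it was −0.31, and without Sucnr1-/- replicate 4 it was −0.08. With replicate 1 of both genotypes left out, the member median minus the median of all genes was −0.18, against −0.20 with all 8 arrays. Of the cell type markers, those of mast cells were lower in mean for 8 of 8 genes, 5 of them at an unadjusted p under 0.05, with mean levels of 6.79 to 6.99 in WT and of 6.34 to 6.72 in Sucnr1-/- mice. Tpsb2 (−0.73, SE 0.12), Mcpt4 (−0.64, SE 0.13) and Cpa3 (−0.74, SE 0.16), which encode mast cell proteases, did not overlap between genotypes, and the part of mast cells in the chemokine values was not tested.

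**Figure D2:**
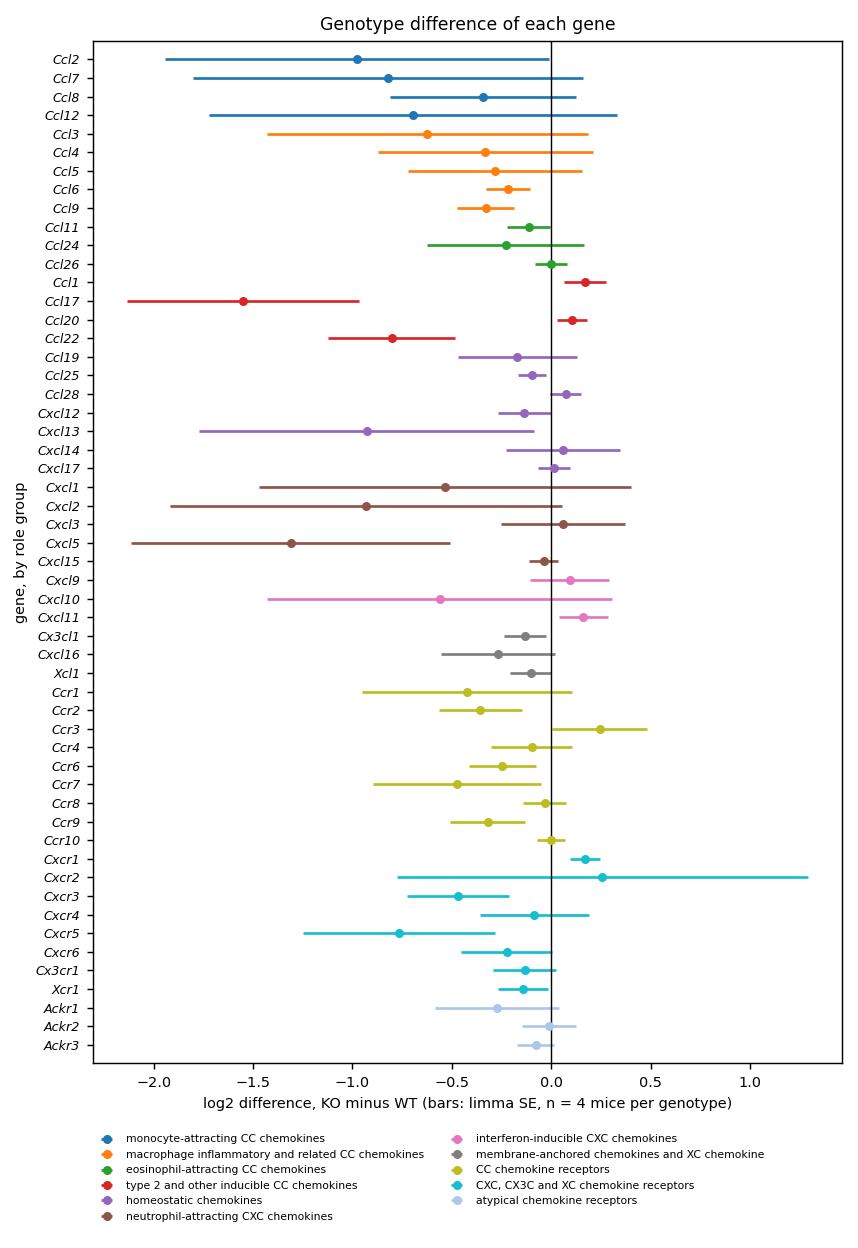
Log2 difference, Sucnr1-/- (KO) minus WT, of each of 54 members (points) with the limma SE (bars, n = 4 mice per genotype), coloured by role group. Most points lie to the left of 0. Bars are widest for Cxcr2, Ccl12, Cxcl2, Ccl7 and Ccl2, and Ccl17, at −1.55, lies farthest to the left.

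The largest mean difference of the family was that of Ccl17, which attracts T helper and regulatory T cells through CCR4. It was at 9.44, 9.28, 8.61 and 8.10 in WT replicates 1 to 4 and at 8.78, 7.46, 7.27 and 5.72 in the Sucnr1-/- replicates. Only replicate 1 of the Sucnr1-/- mice lay within the WT range, and the other 3 were under it. The difference was −1.55 (SE 0.58; limma, unadjusted p = 0.0272, adjusted p = 0.712; exact permutation p = 0.0857, two-sided, n = 4). Leaving out 1 array at a time gave differences between −2.04 and −1.02. Ccl22 encodes the other main ligand of CCR4. It was at 7.96, 6.87, 7.15 and 6.71 in WT mice and at 6.93, 6.56, 5.72 and 6.27 in Sucnr1-/- mice, a difference of −0.80 (SE 0.32; limma, adjusted p = 0.712). Again only Sucnr1-/- replicate 1 reached the WT range. On chromosome 8 these genes are neighbours by gene order (GRCm38.p6), with Cx3cl1 between them, which encodes the membrane-anchored chemokine fractalkine. For Cx3cl1 the WT mean was 6.48 ± 0.22 and the Sucnr1-/- mean 6.35 ± 0.06 (SD, n = 4 each). The receptor gene Ccr4 differed by −0.10 (SE 0.20). Dendritic cell markers, of a cell type that makes both CCR4 ligands, had mean levels of 7.30 to 7.52 in WT and of 7.15 to 7.399 in Sucnr1-/- mice, with 5 of 9 lower in mean, and their part was not tested. Of the other inducible CC ligands, Ccl1 was at 5.25, 5.14, 4.98 and 4.93 in WT and at 5.35, 5.07, 5.14 and 5.41 in Sucnr1-/- mice. Its mean was higher in Sucnr1-/- mice by 0.17 (SE 0.10), and that of Ccl20, the ligand of CCR6, by 0.10 (SE 0.08), with overlapping groups for both.

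**Figure D3:**
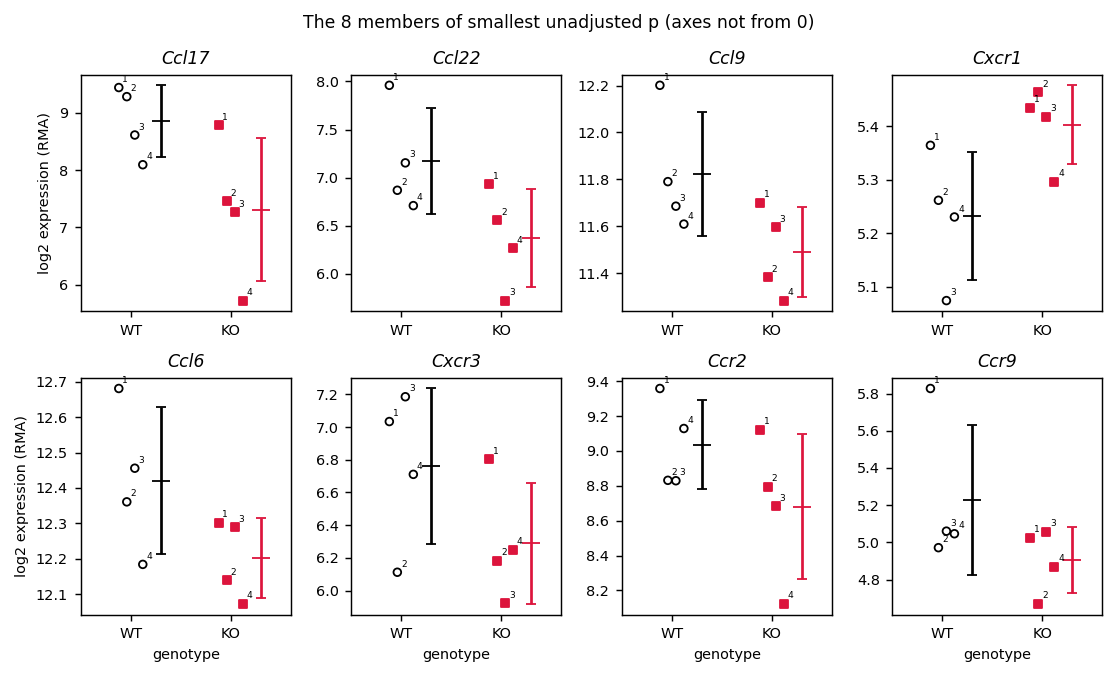
Log2 expression (vertical axis, RMA, not starting at 0) of the 8 members of smallest unadjusted p, 1 point per mouse with its replicate number, WT as open circles and Sucnr1-/- (KO) as filled squares, with mean and SD beside them (n = 4). The genotypes overlap in each panel, and KO 1 is the highest KO mouse for Ccl17, Ccl22, Ccl9, Ccl6, Cxcr3 and Ccr2.

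The 4 monocyte-attracting CC chemokine genes all had lower means in Sucnr1-/- mice, with a median difference of −0.76, but they varied far more between mice of 1 genotype. Their median was −0.13 without WT replicate 1, −0.10 without Sucnr1-/- replicate 4 and −1.31 without Sucnr1-/- replicate 1. Ccl2 was at 12.61, 11.67, 8.76 and 10.80 in WT replicates 1 to 4 and at 11.82, 9.69, 10.49 and 7.92 in the Sucnr1-/- replicates. Ccl7, whose product shares the receptor CCR2, was at 12.84, 11.88, 8.95 and 10.88 in WT and at 12.08, 10.39, 10.71 and 8.08 in Sucnr1-/- mice. The 8 mice had the same order for both genes, from WT replicate 1 at the top to Sucnr1-/- replicate 4 at the bottom. Ccl12, a further CCR2 ligand of mice, was at 9.54, 7.76, 4.99 and 6.63 in WT and at 8.09, 6.84, 6.82 and 4.38 in Sucnr1-/- mice. The mice at the top and the bottom were again the same. The differences were −0.98 (SE 0.96) for Ccl2, −0.82 (SE 0.98) for Ccl7 and −0.70 (SE 1.03) for Ccl12. That of Ccl8 was −0.34 (SE 0.47). These SE are near or above the differences themselves, and that of Ccl12 turned to 0.07 without WT replicate 1 and to 0.02 without Sucnr1-/- replicate 4. In gene order Ccl2, Ccl7, Ccl11, Ccl12, Ccl8 and Ccl1 form a run on chromosome 11. The median difference of this run was −0.52, with Ccl1 the only one of higher mean. The 7 measured monocyte markers were all lower in mean, with levels of 8.35 to 9.30 in WT and of 7.80 to 8.84 in Sucnr1-/- mice, and their part was not tested.

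**Figure D4:**
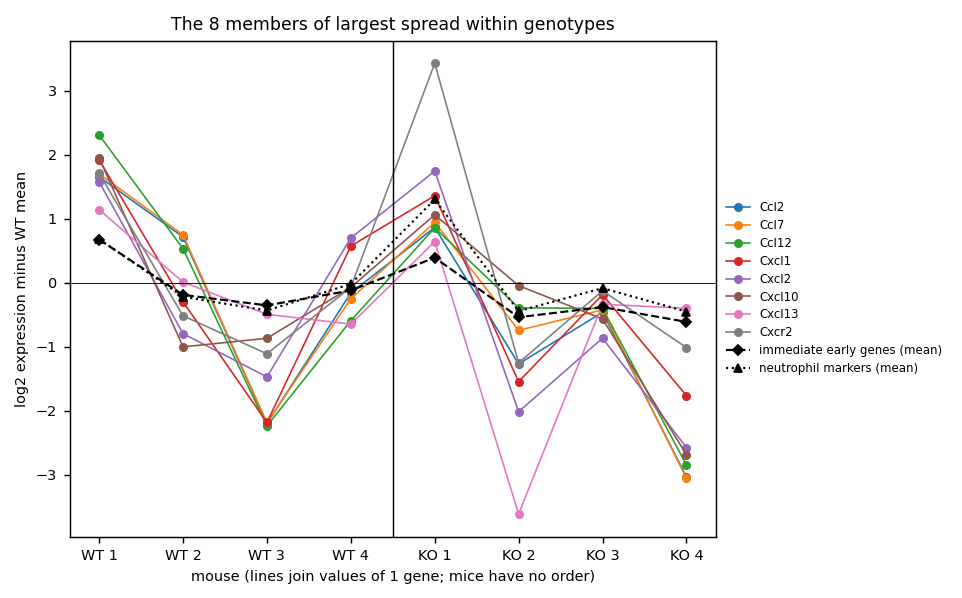
Log2 expression minus the WT mean of the gene (vertical axis) in 8 mice (horizontal axis) for the 8 members of largest spread within genotypes, with the mean of 12 immediate early genes (diamonds, dashed) and of 8 neutrophil markers (triangles, dotted). Lines join the values of 1 gene, and the mice have no order. WT 1 and KO 1 lie above 0 for every gene shown, and KO 4 below 0.

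All 5 macrophage inflammatory and related CC chemokines had lower means in Sucnr1-/- mice, with a median difference of −0.33. The median was −0.13 without WT replicate 1, −0.18 without Sucnr1-/- replicate 4 and −0.52 without Sucnr1-/- replicate 1. Ccl9 and Ccl6 encode chemokines that mouse macrophages make without stimulation, and they varied little between mice. Ccl9 was at 12.20, 11.79, 11.69 and 11.61 in WT and at 11.70, 11.38, 11.60 and 11.28 in Sucnr1-/- mice. Its difference was −0.33 (SE 0.14; limma, unadjusted p = 0.0485, adjusted p = 0.719). Ccl6 was at 12.68, 12.36, 12.46 and 12.18 in WT and at 12.30, 12.14, 12.29 and 12.07 in Sucnr1-/- mice, a difference of −0.22 (SE 0.11). For both genes WT replicate 1 was the highest and Sucnr1-/- replicate 4 the lowest, and the groups overlapped. Without WT replicate 1 the differences were −0.20 and −0.13. Ccl3 and Ccl4, chemokines that activated macrophages make, were more variable, with differences of −0.63 (SE 0.81) and −0.33 (SE 0.54) that were −0.07 and 0.20 without WT replicate 1. Ccl3 ranged from 8.85 to 11.50 in WT and from 7.54 to 11.20 in Sucnr1-/- mice. Ccl5, which attracts T cells and macrophages, followed other mice, with its highest value of 10.24 in WT replicate 3 and its lowest of 8.13 in WT replicate 2. These 5 genes follow each other on chromosome 11. Macrophage markers had mean levels of 10.27 to 10.58 in WT and of 10.05 to 10.26 in Sucnr1-/- mice, with 12 of 14 lower in mean. The general macrophage markers Adgre1 (−0.50, SE 0.15) and Cd68 (−0.49, SE 0.15) were lower in mean in Sucnr1-/- mice without overlap, at a limma adjusted p of 0.712 each. Mertk, a receptor for the uptake of dying cells, had the smallest p of the list and ran the other way, higher in mean without overlap by 0.44 (SE 0.12; limma, adjusted p = 0.712), and Cd163 differed by 0.05 (SE 0.18). Their part in the chemokine values was not tested.

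Of the neutrophil-attracting CXC ligands 4 of 5 had lower means, with a median of −0.54. It was −0.03 without WT replicate 1, −0.13 without Sucnr1-/- replicate 4 and −1.17 without Sucnr1-/- replicate 1. Cxcl5 was at 8.80, 5.88, 4.81 and 6.95 in WT and at 6.58, 4.90, 5.13 and 4.58 in Sucnr1-/- mice, a difference of −1.31 (SE 0.80; −0.58 without WT replicate 1). Cxcl1, which encodes the chemokine KC, was at 10.27, 8.05, 6.17 and 8.93 in WT and at 9.71, 6.81, 8.17 and 6.59 in Sucnr1-/- mice. Cxcl2 was at 9.16, 6.78, 6.11 and 8.28 in WT and at 9.32, 5.56, 6.71 and 5.002 in Sucnr1-/- mice. Replicate 1 of each genotype was the highest of its group for both genes. Their differences were −0.54 (SE 0.94) and −0.93 (SE 0.99), and that of Cxcl1 was 0.10 without WT replicate 1. Cxcl3 was at 5.34 to 6.06 in WT and at 5.19 to 6.58 in Sucnr1-/- mice, and Cxcl15 stayed between 4.29 and 4.57 in all mice.

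The receptor of these ligands, encoded by Cxcr2 on neutrophils, had the largest spread within genotypes of all members. It was at 7.58, 5.35, 4.76 and 5.80 in WT and at 9.30, 4.62, 5.74 and 4.86 in Sucnr1-/- mice. The difference of 0.26 (SE 1.04) was set by Sucnr1-/- replicate 1 and was −0.80 without that array. Some of the 8 measured neutrophil markers other than Cxcr2 moved with the same mice, whereas Elane, Mpo and Camp did not. The mean level of the 8 was 7.86 in Sucnr1-/- replicate 1 and 7.24 in WT replicate 1, and between 6.11 and 6.54 in the other 6 mice. S100a8, a calcium-binding protein of the neutrophil cytosol, was at 9.67 and 8.17 in these 2 mice and at 5.69 to 6.84 in the others. Their part in the Cxcl and Cxcr2 values was not tested. Cxcr1, a related receptor, was at 5.36, 5.26, 5.07 and 5.23 in WT and at 5.43, 5.46, 5.42 and 5.30 in Sucnr1-/- mice. Its higher mean in Sucnr1-/- mice, by 0.17 (SE 0.08; limma, unadjusted p = 0.0538, adjusted p = 0.719), had the smallest p of members in that direction. Only Sucnr1-/- replicate 4 lay within the WT range.

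The sequence before the start sites of Cxcl1 and Cxcl2 is shown because these neighbours on chromosome 5 varied together between mice. Cxcl10 is shown as the interferon-inducible ligand of largest spread, and Ccl17 as the member of largest difference. Sequences are from RefSeq (GRCm38.p6), 250 bases up to the start site, 5′ to 3′ on the strand of the gene. Capitals mark matches, on either strand, to the NF-κB-type letters (GGG, 2 bases of any kind, TTTCC), the interferon-response-type letters (GAAA, 2 bases of any kind, GAAA) and the AP-1-type letters (TGANTCA, where N is any base). These are descriptions of letters and not of bound sites.
Cxcl1 (chr5:90890995-90891244, plus strand): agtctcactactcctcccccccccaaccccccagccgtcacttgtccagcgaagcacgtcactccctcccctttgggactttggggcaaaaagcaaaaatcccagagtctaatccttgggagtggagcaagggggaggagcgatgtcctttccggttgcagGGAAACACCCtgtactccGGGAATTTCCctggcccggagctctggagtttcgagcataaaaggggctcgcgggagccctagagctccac
Cxcl2 (chr5:90903649-90903898, plus strand): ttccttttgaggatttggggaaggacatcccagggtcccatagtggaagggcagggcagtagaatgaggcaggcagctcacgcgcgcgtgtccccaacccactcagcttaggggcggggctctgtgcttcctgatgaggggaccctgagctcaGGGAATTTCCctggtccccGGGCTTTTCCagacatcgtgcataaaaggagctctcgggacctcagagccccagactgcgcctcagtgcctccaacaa
Cxcl10 (chr5:92348890-92349139, minus strand): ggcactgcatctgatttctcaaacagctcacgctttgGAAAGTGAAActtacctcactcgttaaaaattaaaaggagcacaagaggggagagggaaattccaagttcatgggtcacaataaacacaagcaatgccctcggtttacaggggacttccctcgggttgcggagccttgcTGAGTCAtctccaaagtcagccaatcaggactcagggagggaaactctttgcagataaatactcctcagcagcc
Ccl17 (chr8:94810203-94810452, plus strand): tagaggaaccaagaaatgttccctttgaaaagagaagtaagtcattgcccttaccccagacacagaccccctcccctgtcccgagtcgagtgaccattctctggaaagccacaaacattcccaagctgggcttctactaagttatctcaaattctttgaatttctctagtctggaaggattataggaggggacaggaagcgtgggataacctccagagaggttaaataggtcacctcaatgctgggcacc

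In these stretches Cxcl1 held 2 NF-κB-type matches, 89 to 80 and 71 to 62 bases before the start, the former on the opposite strand. Cxcl2 held 2 as well, 97 to 88 and 78 to 69 bases before the start. Cxcl10 held an interferon-response-type match 213 to 204 bases and an AP-1-type match 74 to 68 bases before it, and Ccl17 held none of the 3 motifs. Of the 23 measured ligands with a sequence in the table, 5 held the NF-κB-type letters (21.7%), namely Ccl20, Ccl9, Cxcl1, Cxcl2 and Cxcl3, against 1.65% of 27025 genes with such a sequence. Of 17 receptors 1 held them (5.88%), which was Ccr3. The interferon-response-type letters stood before 3 ligands (13.0%), Ccl19, Cxcl10 and Cxcl14, against 3.46% of all genes, and before 0 receptors. The AP-1-type letters were found before 2 ligands and 2 receptors (10.0% of 40 members, against 7.82% of all genes).

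Ligands of CXCR3 are induced by interferon and attract activated T cells. Cxcl10 was at 11.996, 9.04, 9.17 and 9.97 in WT and at 11.10, 10.00, 9.48 and 7.36 in Sucnr1-/- mice, with replicate 1 highest in each group. Its difference of −0.56 (SE 0.87) turned to 0.09 without WT replicate 1 and to 0.15 without Sucnr1-/- replicate 4. Cxcl9, at 11.21 to 11.85 in WT and at 11.13 to 11.94 in Sucnr1-/- mice, differed by 0.09 (SE 0.20), and its highest mice were Sucnr1-/- replicate 2 and WT replicate 3. Cxcl11, which RefSeq lists as a transcribed pseudogene in this assembly, differed by 0.16 (SE 0.12), with all mice between 5.07 and 5.66. It was also highest in Sucnr1-/- replicate 2. The receptor gene Cxcr3 was at 7.03, 6.11, 7.18 and 6.71 in WT and at 6.80, 6.18, 5.92 and 6.25 in Sucnr1-/- mice. Its difference was −0.47 (SE 0.26; limma, adjusted p = 0.728), with WT replicate 2 as low as the Sucnr1-/- mice. T and NK cell markers had mean levels of 6.26 to 7.13 in WT and of 6.16 to 6.99 in Sucnr1-/- mice, with 10 of 12 lower in mean, and their part was not tested.

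Homeostatic ligands, which organise lymphoid tissue and steady traffic, had lower means in Sucnr1-/- mice for 4 of 7 genes, with a median of −0.10. It was −0.03 without WT replicate 1 and −0.15 without Sucnr1-/- replicate 1. Cxcl13, the B cell chemokine, was the exception in its spread. It was at 11.85, 10.72, 10.22 and 10.06 in WT and at 11.35, 7.10, 10.37 and 10.31 in Sucnr1-/- mice. Sucnr1-/- replicate 2 lay far below all others, and the difference of −0.93 (SE 0.84) was −0.03 without that mouse. Its receptor gene Cxcr5 was at 7.14, 4.90, 5.29 and 4.66 in WT and at 5.09, 4.54, 4.71 and 4.59 in Sucnr1-/- mice. Here WT replicate 1 stood apart from all others, and the difference of −0.77 (SE 0.48) was −0.22 without it. Markers of B and plasma cells had mean levels of 6.06 to 8.14 in WT, highest in WT replicate 1, and of 5.67 to 6.92 in Sucnr1-/- mice, with 9 of 9 lower in mean, and their part was not tested. Cxcl12, which retains leucocytes through CXCR4, had a WT mean of 9.38 ± 0.28 and a Sucnr1-/- mean of 9.25 ± 0.11 (SD, n = 4 each). Cxcl14 ranged from 6.43 to 7.48 in WT and from 6.56 to 7.68 in Sucnr1-/- mice. Ccl19 differed by −0.17 (SE 0.30), Ccl25 by −0.10 (SE 0.07), Ccl28 by 0.07 (SE 0.08) and Cxcl17 by 0.01 (SE 0.08). The eosinophil-attracting ligands Ccl11 and Ccl24 differed by −0.11 (SE 0.11) and −0.23 (SE 0.40), and Ccl26 had a mean of 4.62 in both genotypes. Cxcl16, which is anchored in the membrane and also binds oxidised lipoprotein, differed by −0.27 (SE 0.29), and the lymphotactin gene Xcl1 by −0.10 (SE 0.10).

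Members on shared probe sets are given as levels of the shared signal, with no test. The 4 probe sets named for Ccl21a, Ccl21b, Ccl21c and Gm1987 held identical values, so they count as 1 measurement. CCL21 draws lymphocytes and dendritic cells into lymphoid tissue. The signal was at 10.50, 12.30, 10.15 and 11.33 in WT and at 11.06, 11.28, 9.09 and 10.01 in Sucnr1-/- mice, with overlapping groups. CCL27 is a chemokine for skin-homing T cells. A signal named for Ccl27a and Gm13306 was at 7.81, 8.02, 8.23 and 8.00 in WT and at 8.48, 8.61, 8.25 and 8.21 in Sucnr1-/- mice, a mean difference of 0.37. A further probe set of Ccl27a, Gm13306 and Gm21953 lay between 8.28 and 8.68 in WT and between 8.71 and 9.04 in Sucnr1-/- mice. The groups did not overlap, as for 2.37% of all genes in the higher direction, and the signal cannot be assigned to Ccl27a alone. The last Ccl27a probe set, shared with 3 other names, differed by 0.06 and overlapped. The signal shared by Ackr4 and Acad11 had a WT mean of 7.24 ± 0.30 and a Sucnr1-/- mean of 7.19 ± 0.23 (SD, n = 4 each).

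Among receptor genes the median difference was −0.14, with 1 of 20 lower by at least 0.5 (Cxcr5), against 11 of 34 ligands and 1.69% of all genes. The receptor median was −0.05 without WT replicate 1 and −0.25 without Sucnr1-/- replicate 1, and Cxcr5 was at −0.22 without WT replicate 1. Of the 11 ligands, all but Ccl17 and Ccl22 had an SE of at least 0.80, so this count also depends on the spread between mice. Without WT replicate 1 only Ccl17, Ccl22, Cxcl5 and Cxcl13 of them stayed lower by at least 0.5. Ccr2, the receptor of inflammatory monocytes, was at 9.36, 8.83, 8.83 and 9.13 in WT and at 9.12, 8.80, 8.68 and 8.12 in Sucnr1-/- mice, a difference of −0.36 (SE 0.21; limma, adjusted p = 0.733). Ccr1, found on monocytes, macrophages and neutrophils, was at 9.18, 8.36, 7.23 and 7.90 in WT and at 8.98, 7.58, 7.76 and 6.64 in Sucnr1-/- mice. Its difference was −0.42 (SE 0.53), and −0.09 without WT replicate 1. Ccr9, a receptor for CCL25 on gut-homing T cells, was at 5.83, 4.97, 5.06 and 5.05 in WT and at 5.03, 4.67, 5.06 and 4.87 in Sucnr1-/- mice. Ccr6, found on B cells and T helper 17 cells, was at 5.52, 5.02, 4.70 and 4.74 in WT and at 4.80, 4.80, 4.76 and 4.62 in Sucnr1-/- mice. WT replicate 1 was the highest of all mice for both genes, and the differences of −0.32 (SE 0.19) and −0.25 (SE 0.17) were −0.12 and −0.07 without it. Cxcr4, the receptor of CXCL12, was at 7.96, 7.05, 8.06 and 7.53 in WT and at 7.97, 7.04, 7.33 and 7.92 in Sucnr1-/- mice. Its difference of −0.09 (SE 0.27) changed sign without WT replicate 1 (0.02), without WT replicate 3 (0.05) or without Sucnr1-/- replicate 2 (0.09). Ccr7, through which dendritic cells and T cells respond to CCL19 and CCL21, differed by −0.47 (SE 0.42; −0.02 without WT replicate 1, which lay at 9.40). Ccr3, the eosinophil receptor, had a higher mean by 0.24 (SE 0.24), with Sucnr1-/- replicate 3 highest at 6.86. Ccr8 differed by −0.03 (SE 0.11), and Ccr10 had a mean of 4.96 in both genotypes. Cxcr6, Cx3cr1 and Xcr1 differed by −0.22 (SE 0.23), −0.13 (SE 0.16) and −0.14 (SE 0.12). Among the atypical receptors, Ackr1, which carries chemokines across venules, differed by −0.27 (SE 0.31). Ackr2 and Ackr3, which scavenge CC chemokines and CXCL12, differed by −0.01 (SE 0.14) and −0.08 (SE 0.09).

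Whether ligand and receptor genes varied together was examined over the 8 mice for 22 known pairs, with exact permutation p-values adjusted over the 22. These correlations include both genotypes and share arrays, so they describe these mice. Genes that are not known as ligand and receptor were not paired, so no background stands beside these values. Ccl2 and Ccr1, which are not among the 22 pairs, had the same order of the 8 mice. A pattern of mice shared by many members and a link of ligand to receptor cannot be told apart here. For Ccl3 and Ccr1, Pearson's r was 0.97 (exact permutation p = 0.000347, adjusted p = 0.00273) and Spearman's rho 0.95 (exact permutation p = 0.00114, adjusted p = 0.0125). Without the 2 mice farthest from the median of Ccl3, r was 0.91. For Cxcl2 and Cxcr2, r was 0.88 (exact permutation p = 0.000372, adjusted p = 0.00273) and rho 0.90 (exact permutation p = 0.00456, adjusted p = 0.0251), with r at 0.83 without 2 mice. For Cxcl1 and Cxcr2, r was 0.85 (exact permutation p = 0.00201, adjusted p = 0.0110) and rho 0.90 (exact permutation p = 0.00456, adjusted p = 0.0251), with r at 0.84 without 2 mice. For Ccl25 and Ccr9, r was 0.81 (exact permutation p = 7.44e-05, adjusted p = 0.00164) and rho 0.98 (exact permutation p = 0.000397, adjusted p = 0.00873), with r at 0.87 without 2 mice, although Ccl25 spanned only 6.96 to 7.21. These were the 4 pairs under an adjusted p of 0.05 by both measures. Taken as deviations from the mean of each genotype, r was 0.96 for Ccl3 and Ccr1, 0.96 for Cxcl2 and Cxcr2, 0.88 for Cxcl1 and Cxcr2 and 0.74 for Ccl25 and Ccr9. Replicate 1 of each genotype, which had the highest mean of the neutrophil markers, was also at the top for Cxcl1, Cxcl2 and Cxcr2. For Ccl2 and Ccr2, r was 0.83 (exact permutation p = 0.00923, adjusted p = 0.0315) and rho 0.83 (exact permutation p = 0.0154, adjusted p = 0.0564). As deviations from the genotype means r was 0.81. It was 0.45 without WT replicate 1 and Sucnr1-/- replicate 4, the 2 mice farthest from the median of Ccl2. Leaving out such mice narrows the range, which by itself can lower r. Without the same 2 mice r went from 0.83 to 0.40 for Ccl7 with Ccr2 and from 0.80 to 0.30 for Ccl12 with Ccr2. Without WT replicate 1 and Sucnr1-/- replicate 1, r for Ccl8 and Ccr8 went from 0.80 to 0.37, and without WT replicates 1 and 2 that for Cxcl12 and Ackr3 went from 0.77 to −0.06. For these 5 pairs the adjusted exact permutation p lay under 0.05 by r but not by rho. For the other 13 pairs neither measure had an adjusted p under 0.05, among them Cxcl12 and Cxcr4 (r = −0.23, exact permutation p = 0.548, adjusted p = 0.710; rho = −0.21, exact permutation p = 0.619, adjusted p = 0.717).

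**Figure D5:**
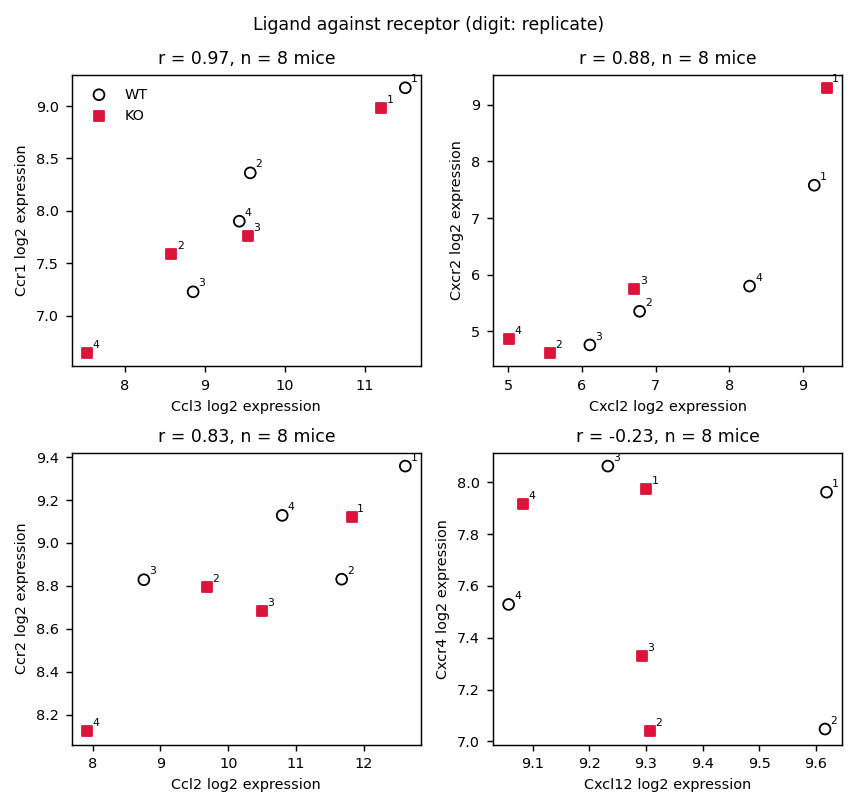
Log2 expression of a ligand gene (horizontal axis) against that of a receptor gene (vertical axis) in 8 mice, WT as open circles and Sucnr1-/- (KO) as filled squares, with the replicate number beside each point. Ccl3 with Ccr1 (r = 0.97) and Cxcl2 with Cxcr2 (r = 0.88) rise together in both genotypes. For Ccl2 with Ccr2 r is 0.83, and 0.45 without WT 1 and KO 4. Cxcl12 with Cxcr4 (r = −0.23) shows no such rise.

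Genes that act downstream of chemokine receptors also had mostly lower means in Sucnr1-/- mice. Of 45 measured signalling genes 34 had a lower mean in Sucnr1-/- mice, against 46.8% of all genes. Of these 34, 11 were at an unadjusted p under 0.05 (3.36% of all genes), and 1 of 11 with a higher mean was under it (3.46% of all genes). By limma, 0 of them had an adjusted p under 0.05. The median difference was −0.14, and −0.07 without WT replicate 1. Plcb2, a phospholipase of leucocytes that G proteins switch on, had the smallest p, with 6.57 in WT and 6.03 in Sucnr1-/- mice on average, a difference of −0.54 (SE 0.13; limma, unadjusted p = 0.00294, adjusted p = 0.712) without overlap. Vav3, an activator of small GTPases, differed by −0.27 (SE 0.09), also without overlap, and the kinase gene Prkcd by −0.49 (SE 0.16). Rgs2, which ends G protein signals, ran the other way at 0.43 (SE 0.14). Among 15 other chemoattractants and their receptors 13 had lower means, against 46.8% of all genes. Their median difference was −0.23, and it was −0.09 without WT replicate 1 and −0.07 without Sucnr1-/- replicate 4. Of the 13, 1 was at an unadjusted p under 0.05 (3.36% of all genes). That gene was C3ar1, the receptor for complement C3a, which differed by −0.45 (SE 0.14) without overlap, and C5ar1, Gpr183 and Ccrl2 by −0.41 (SE 0.18), −0.53 (SE 0.24) and −0.29 (SE 0.15). Of 13 genes for proteases that trim chemokines and for heparan sulphate proteins that hold them, 9 had lower means. The median of the 13 was −0.25, and it was −0.07 without WT replicate 1 and −0.14 without Sucnr1-/- replicate 4. At an unadjusted p under 0.05 there were 3 of the 9 (3.36% of all genes). Of these, Mmp12, a protease of macrophages, differed by −0.64 (SE 0.22), and the heparan sulphate carriers Sdc3 and Sdc1 by −0.35 (SE 0.13) and −0.47 (SE 0.18). Ext1, which builds the heparan sulphate chain, differed by −0.26 (SE 0.13). Most macrophage markers, though not Mertk and Cd163, had lower means in Sucnr1-/- mice as well, and their part in these values was not tested.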

How the data were processed

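Epididymal adipose tissue RNA of 8 mice was measured on Affymetrix whole-transcript arrays. The authors deposited log2 values made with RMA, per the labels. Its version and a genome build are not given in the sources used here. RMA normalizes arrays together and compresses low values. Array medians lay between 6.28 and 6.36. Of 35556 probe sets 21218 had 1 gene symbol, 1881 several and 12457 none. Symbols came from the platform annotation, 21185 probe sets matched RefSeq (GRCm38.p6) by gene ID, and the brightest probe set stood for a gene. Ccl19 had 5 probe sets and Ccl25 had 2. Genotypes were compared with limma 3.58.1 in R 4.3.3 over 18820 genes (Benjamini-Hochberg, threshold 0.05, prior degrees of freedom 2.67), a procedure tested on simulated data. Exact permutation tests were two-sided, and 4 mice against 4 allow no p below 0.0286. The number of arrays limits the precision. Members, role groups, lists and motifs were chosen with earlier results of these data known.

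Values in every mouse are given for the 12 members of smallest unadjusted p, the 8 of largest spread within genotypes and those the paper names, 22 in all. From each list of other genes up to 4 of smallest p are named. Results were recomputed with the methods' t-test, a prior that follows intensity, omission of the dimmest 40% of genes, weights on arrays, median centring, quantile normalization, the mean of probe sets, a replicate block, and omission of each array or of replicate 1 of both genotypes. Values of the shared Ccl21 and Ccl27a probe sets were added after seeing the data. Similar genes may share probes. Some listed items are not reported here. Figures were drawn with matplotlib 3.10.9.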

Additional observations from a re-analysis of the deposited data

Results flagged for a closer look

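Among the 22 members described by mouse, 1 group held a value far from the other 3. Ccr9 was at 5.83 in WT replicate 1, against 4.97 to 5.06 in the other WT mice, and the gap took up 0.896 of the range of the group. Chance gives a gap large enough to be flagged in about 1 of 20 groups, and both genotypes of all 22 members were searched.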

How the results depend on the processing

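No member passed an adjusted p of 0.05 under any alternative run. The count of members with a lower mean and an unadjusted p under 0.05 was 3, and it was 0 with the methods' t-test, 6 with the replicate block and 0 to 7 when 1 array was left out (0 without WT replicate 1, Sucnr1-/- replicate 3 or Sucnr1-/- replicate 4, 5 without WT replicate 4, 7 without Sucnr1-/- replicate 1). The count of members with a higher mean was 0, and it was 1 with array weights, with median centring and without replicate 1 of both genotypes, and 0 to 2 when 1 array was left out. Over all 18820 genes the lower count also moved when 1 array was left out, from 368 without Sucnr1-/- replicate 2 to 885 without Sucnr1-/- replicate 1. The higher count over all genes moved from 440 without Sucnr1-/- replicate 2 to 870 without WT replicate 4. Same-numbered mice correlated in their deviations from the group means by 0.45, 0.14, 0.11 and 0.01, and 2 of 4 Sucnr1-/- mice correlated best with their own number, so the numbers were not taken as pairs. The median difference of the members lay between −0.31 and −0.03 when 1 array was left out, and 32 to 45 of 54 had a lower mean. With each array centred on its median, 38 had a lower mean, and the split of all genes at an unadjusted p under 0.05 was 330 lower and 1352 higher, against 632 and 652. After quantile normalization it was 465 and 838, without the dimmest 40% of genes 535 and 369, and with the replicate block 1096 and 809. Of the 22 members described by mouse 17 kept their sign under every alternative run that held them. Omission of the dimmest 40% of genes removed Ccl1, Ccr6, Ccr9, Cxcl5, Cxcr1, Cxcr2 and Cxcr5. For these 22 members the methods' t-test, the intensity prior, that omission, the replicate block and the mean of probe sets left each difference unchanged. A sign could therefore change only in the other runs. The ranges when 1 array was left out were −1.44 to 0.071 for Ccl12, −1.27 to 0.10 for Cxcl1, −1.10 to 0.15 for Cxcl10, −0.80 to 0.83 for Cxcr2 and −0.29 to 0.0887 for Cxcr4. With replicate 1 of both genotypes left out, Ccl12 was at −0.45, Cxcl1 at −0.53, Cxcl10 at −0.45, Cxcr2 at −0.23 and Cxcr4 at −0.12. The cause was not tested. No shared probe set was named for members alone, so that alternative gave no value.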
